A study of Gallus gallus with 25 samples.

Results

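Between the lampbrush stage and the stage that follows it, 244 of the 1654 internal contact domain boundaries (14.8%) of the larger pooled lampbrush map were present in the other lampbrush map and absent from both later maps. They were chosen by their positions in 4 lists of domains called automatically on pooled Hi-C maps of chicken oocyte nuclei. A boundary is the start or the end of a domain, without the first and the last one of each chromosome. Each of the 244 absent boundaries lay in the LBC type 1 list, had a boundary within 80 kb in the LBC type 2 list and had none within 80 kb in the post-LBC type 1 list or in the post-LBC type 2 list. The absence itself was therefore fixed by the choice and is not a result.

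Lampbrush chromosomes (LBCs) are the extended chromosomes of growing diplotene oocytes of birds and amphibians. Chromatin along their axis is packed into compact globules called chromomeres, from which pairs of heavily transcribed lateral loops extend. Later in oogenesis transcription declines, the loops retract and the chromosomes condense and shorten. In Hi-C maps a contact domain is a stretch of chromosome whose loci touch each other more often than they touch neighbouring stretches, and its boundary is the place where this preference ends.

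The study prepared single-nucleus Hi-C from WT chicken oocytes dissected from the ovary. Post-LBC oocytes measured 4 to 7 mm in diameter, with 4 nuclei of type 1 and 1 nucleus of type 2, and LBC oocytes measured 1 to 2 mm, with 14 nuclei of type 1 and 6 nuclei of type 2. Type 1 and type 2 were assigned to the nuclei after quality control, with more contacts between chromosomes in type 2. The study holds the origin of type 2 to be unclear. For the LBC type 2 nuclei it weighs an earlier, pre-lampbrush stage, which it finds more plausible, or admixed somatic material, which it finds unlikely. It also reports that the domain boundaries of LBC type 2 clustered much like those of chicken fibroblasts. For the post-LBC type 2 nucleus it proposes a later stage. LBC type 2 is called a lampbrush map here by its label only, and whether its boundaries are those of lampbrush chromosomes was not tested. The contacts of each group were pooled before domains were called, so each list stands for 1 map, the post-LBC type 2 list stands for 1 nucleus, and no spread between nuclei or hens could be measured.

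The lists held 1132 domains in post-LBC type 1, 1342 in post-LBC type 2, 1546 in LBC type 1 and 1582 in LBC type 2. The median domain length was 864 kb and 688 kb in the 2 post-LBC lists, against 592 kb and 608 kb in the 2 LBC lists. A separate list of 873 domains, which the authors refined by hand on the LBC type 1 map, was not used in the choice. A list with more boundaries lies within 80 kb of more of the genome. Of the positions on a 16 kb grid inside LBC type 1 domains, 19.8% lay within 80 kb of a post-LBC type 1 boundary, 24.9% of a post-LBC type 2 boundary, 27.8% of an LBC type 2 boundary and 15.4% of a manual boundary.

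Of the 854 internal LBC type 1 boundaries with an LBC type 2 partner, the 244 absent ones made up 28.6% (95% Wilson interval 25.6 to 31.7). Another 353 were kept in all 4 maps, 161 had a partner in post-LBC type 1 but not in post-LBC type 2, and 96 had one in post-LBC type 2 but not in post-LBC type 1. The intervals cover counting error only, since the boundaries of a list are parts of 1 map and not replicates. The remaining 800 boundaries had no LBC type 2 partner, and 317 of them were found in LBC type 1 only.

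The pattern of LBC type 1 and LBC type 2 together against both later lists can be set beside the other pairings of the same list. LBC type 1 boundaries that were shared with post-LBC type 1 and with neither type 2 list numbered 167. Those shared with post-LBC type 2 and with neither LBC type 2 nor post-LBC type 1 numbered 109. The 244 absent boundaries were the most numerous of the 3 pairings, and the LBC type 2 list also covered the largest share of grid positions. In the opposite direction, 85 boundaries of post-LBC type 1 had a post-LBC type 2 partner and none in either LBC list, which was 7.10% of its 1198 internal boundaries. The share for absent boundaries was 14.8% of 1654. The directions differ in the number of boundaries in the partner list and in the lists to be avoided. The part of list size in the difference was not tested.

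Boundaries in no post-LBC list were less often shared between the 2 lampbrush lists than boundaries in both. An LBC type 2 partner was present for 43.5% of the 561 LBC type 1 boundaries found in no post-LBC list (39.4 to 47.6), and for 63.0% of the 560 found in both (59.0 to 66.9). It was present for 49.1% of those in post-LBC type 1 only and for 46.8% of those in post-LBC type 2 only. All 4 shares were above the 27.8% of grid positions near an LBC type 2 boundary.

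**Figure D1:**
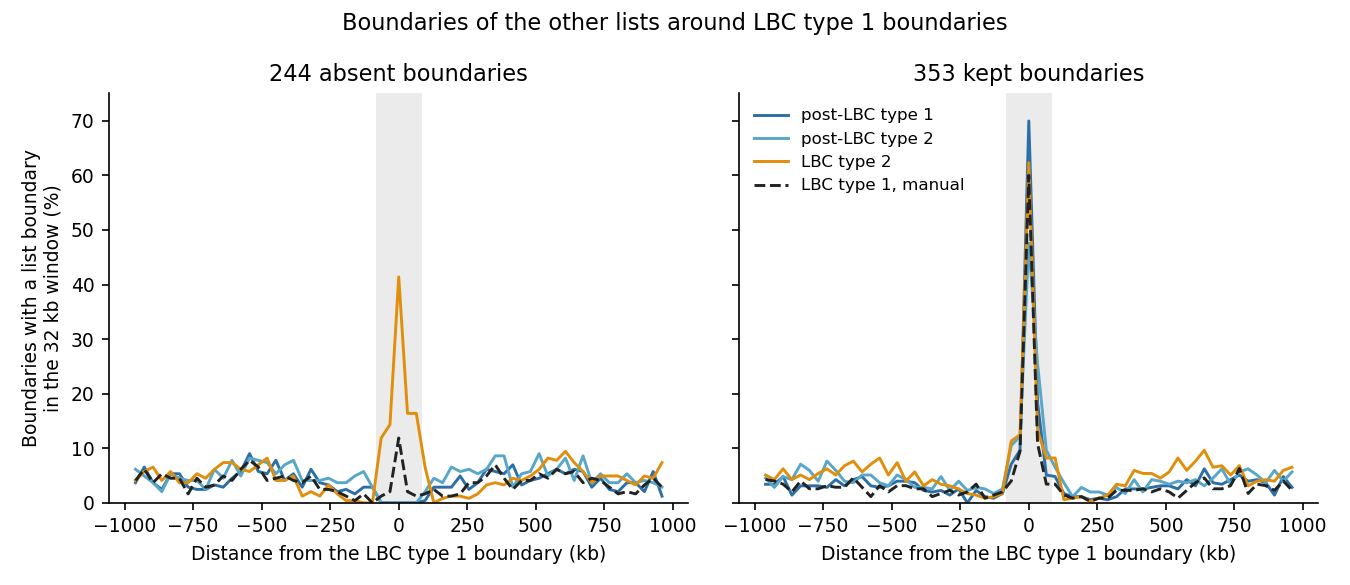
Share of LBC type 1 boundaries (y axis, %) with a boundary of another list in a 32 kb window at each distance (x axis, kb), for the 244 absent boundaries (left) and the 353 boundaries kept in all 4 maps (right). Grey marks the 80 kb on either side used in the choice. The gap of both post-LBC lines on the left follows from the choice, whereas the low manual line on the left does not.

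The distances to later boundaries describe the choice. The distance of an absent boundary to the nearest post-LBC boundary of either list had a median of 240 kb (quartiles 160 and 352 kb, range 96 to 720 kb). The median distance was 352 kb to a post-LBC type 1 boundary and 264 kb to a post-LBC type 2 boundary. The positions fall on a 16 kb grid, so 96 kb is the smallest distance that the choice allowed. At that edge, 12 members had a post-LBC boundary at 96 kb, and 22 boundaries with an LBC type 2 partner had one at 80 kb and were not members. For the LBC type 2 partner, 27 members had it at 80 kb, and 25 boundaries absent from both post-LBC lists had it at 96 kb and were not members. Examples just inside are the boundaries on chromosome 2 at 33888000, which was 96 kb from a boundary in both post-LBC lists, and at 75856000, which was 96 kb from one in post-LBC type 2 and 560 kb from one in post-LBC type 1. All coordinates are those of the chicken assembly ASM2420605v2.

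The position of an absent boundary was less sharply shared between the 2 lampbrush maps than that of a kept one. LBC type 1 and LBC type 2 placed it at the same 16 kb position for 83 of 244 absent boundaries (34.0%, 28.4 to 40.2) and for 198 of 353 kept boundaries (56.1%, 50.9 to 61.2). The difference was -22.1 percentage points (Newcombe interval -29.7 to -14.0). The median offset was 32 kb for absent boundaries and 0 kb for kept ones. The share over all 854 boundaries with an LBC type 2 partner was not taken. It is therefore open whether absent boundaries were low or kept ones high. Of the 11 grid positions within 80 kb, 1 is at an offset of 0, which is 9.09%, so both sets shared exact positions more often than an even spread over the window would give. Boundaries at a gap, a stretch that the domain list leaves out, were more common among kept boundaries. Without them, the offset was 0 for 58 of 206 absent boundaries (28.2%) and 97 of 225 kept ones (43.1%), a smaller difference of -15.0 points (-23.6 to -5.90).

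Absent boundaries were spread over 26 of the 28 chromosomes. Chicken chromosomes differ widely in size and are grouped here as macrochromosomes (1 to 5), intermediate chromosomes (6 to 10), the small, gene-rich microchromosomes (11 and above) and the sex chromosome Z. The macrochromosomes held 122 absent boundaries, the intermediate chromosomes 48, the microchromosomes 53 and Z 21. Macrochromosomes and Z together held 58.6% of the absent boundaries (52.3 to 64.6), 62.3% of the kept ones (57.2 to 67.2) and 64.5% of all internal LBC type 1 boundaries. Per 10 Mb of LBC type 1 domain there were 2.04 absent boundaries on macrochromosomes, 3.38 on intermediate chromosomes, 3.12 on microchromosomes and 2.80 on Z. Kept boundaries followed a similar order, with 3.35, 4.37, 4.18 and 2.67 per 10 Mb in the same classes, except that Z had the fewest.

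Among boundaries with an LBC type 2 partner, the absent share was 25.6% on macrochromosomes (21.9 to 29.7), 32.2% on intermediate chromosomes (25.2 to 40.1), 31.0% on microchromosomes (24.5 to 38.3) and 36.8% on Z (25.5 to 49.8). The 4 intervals overlap. Shares of single chromosomes ranged more widely. Most of them rest on few shared boundaries, which by itself widens the range. Differences between them beyond counting error were not tested. Chromosome 1, the longest, had 27 absent of 149 shared boundaries (18.1%, 12.8 to 25.1), and chromosome 2 had 35 of 109 (32.1%, 24.1 to 41.4). Of the 19 chromosomes with at least 10 shared boundaries, the share was highest on microchromosome 20, with 8 of 13 (61.5%, 35.5 to 82.3), and lowest on microchromosome 15, with 1 of 14 (7.14%, 1.27 to 31.5). The 8 on chromosome 20 include 4 sides of gaps, with both sides of each gap counted. Its interval treats these sides as separate boundaries and is therefore too narrow. Other chromosomes with both sides of a gap counted, among them chromosome 1, share this limit. The single absent boundary of chromosome 15 was at 1904000. Chromosomes 25 and 27 had none, of 6 and 3 shared boundaries.

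**Figure D2:**
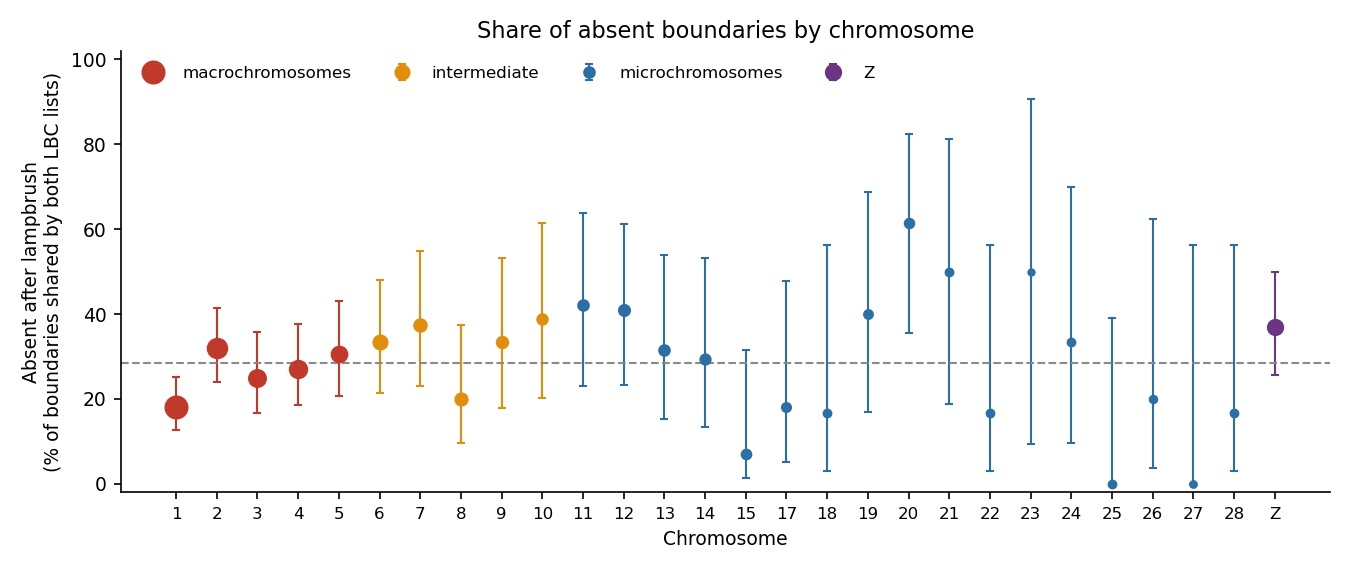
Absent boundaries as a share (y axis, %) of the LBC type 1 boundaries that had an LBC type 2 partner, for each chromosome (x axis). Points scale with the number of shared boundaries, bars are 95% Wilson intervals and the dashed line is the share over all chromosomes, 28.6%. Chromosomes 20 and 15 were the extremes among those with at least 10 shared boundaries, and all intervals except those of chromosomes 1 and 20 span the line. The intervals of chromosomes 1 and 20, among others, count both sides of a gap as separate boundaries.

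Few absent boundaries stood next to each other. After an absent boundary, the next LBC type 1 boundary along the chromosome was also absent in 18 of 217 cases (8.29%, 5.31 to 12.7), against 219 of 1490 cases (14.7%) after any boundary, with pairs on either side of 1 gap left out. Both neighbours were judged by the same post-LBC positions that the choice used, so these shares are in part fixed by the choice. Whether absent boundaries avoid each other was not tested. Of all runs of absent boundaries, 191 held 1 boundary, 21 held 2, 1 held 3 and 2 held 4. Unlike the shares above, these runs include the 11 pairs on either side of 1 gap. The longest run was on chromosome 2, with boundaries at 32048000, 32560000, 33408000 and 33888000, a span of 1840 kb. Over it the post-LBC type 1 list placed domains from 31536001 to 32672000, from 32672001 to 33792000 and from 33792001 to 34576000, the last of which held the boundary at 33888000. The boundaries at 32560000 and 33888000 were therefore only 112 kb and 96 kb from a post-LBC type 1 boundary, little more than the 80 kb of the choice. The run of 4 on chromosome 20, at 2736000, 2816000, 3376000 and 3408000, consisted of the sides of 2 gaps of 80 kb and 32 kb between domains. The run of 3 on chromosome 2, at 80880000, 81328000 and 81408000, included the sides of a gap of 80 kb.

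Of the absent boundaries, 38 bordered a gap (15.6%, 11.6 to 20.7), against 128 of the kept ones (36.3%, 31.4 to 41.4) and 8.52% of those found in LBC type 1 only. Over all internal LBC type 1 boundaries it was 272 (16.4%), so the absent boundaries were near the background and the kept ones above it. In 11 cases both sides of 1 gap were absent boundaries, with gaps of 16 to 80 kb. Counted once per gap, the absent boundaries numbered 233. The lengths below concern the other 206 absent boundaries, which lay between 2 adjoining domains.

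The domains on either side of an absent boundary were close in length to those beside a kept one. Their summed length had a median of 1152 kb at 206 absent boundaries (quartiles 932 and 1408 kb) and 1232 kb at 225 kept ones (1008 and 1472 kb), a ratio of medians of 0.935. The 95% order-statistic intervals of the medians, 1072 to 1184 kb at absent and 1184 to 1280 kb at kept boundaries, meet at 1184 kb. The shorter flanking domain had a median of 440 kb at absent and 464 kb at kept boundaries, and the longer one 688 kb and 736 kb. Over all 1382 internal boundaries between adjoining domains the median sum was 1216 kb. The direction depended on the list. The LBC type 2 domains that flank the same boundaries summed to a median of 1232 kb at absent and 1216 kb at kept boundaries, a ratio of 1.01.

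By chromosome class, the summed LBC type 1 flanks had medians of 1144 kb at absent and 1248 kb at kept boundaries of macrochromosomes, 1120 kb and 1104 kb on intermediate chromosomes, 1064 kb and 1208 kb on microchromosomes, and 1528 kb and 1536 kb on Z. The Z chromosome had the highest median at absent and kept boundaries alike, from 18 absent and 7 kept boundaries. For the 7 kept ones the interval of the median, 608 to 2048 kb, spans the medians of all other classes. The longest flanks of any absent boundary were on Z at 31568000, between domains of 1568 kb and 1392 kb. The shortest were on chromosome 3 at 24400000, between domains of 272 kb and 224 kb.

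**Figure D3:**
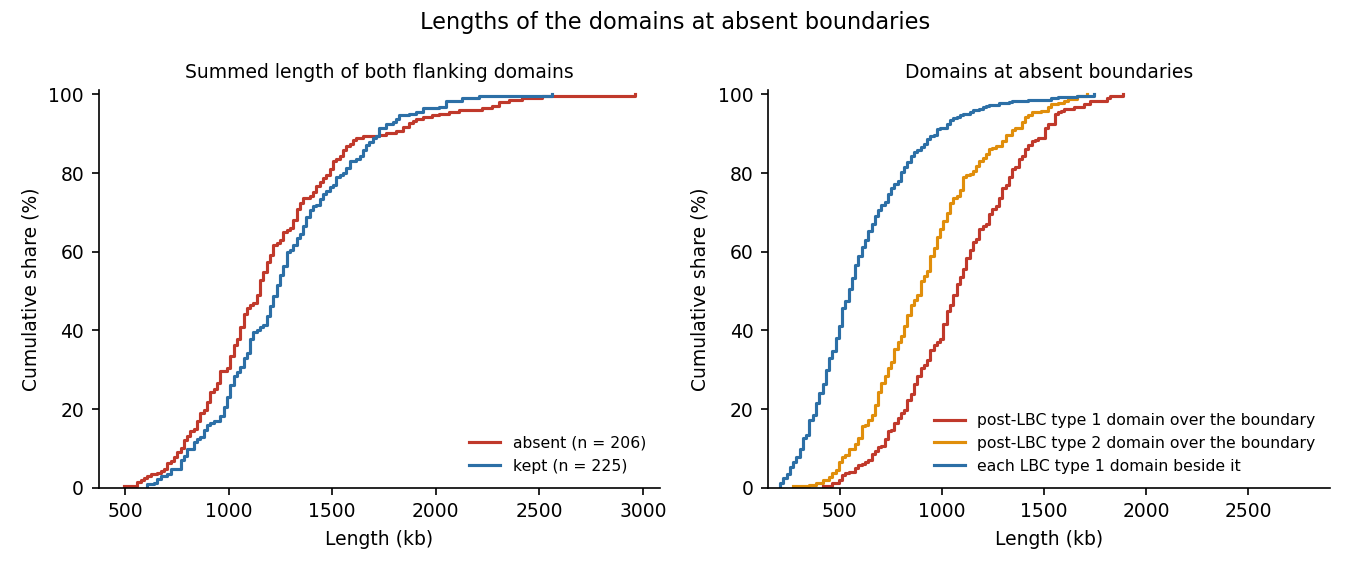
Cumulative shares (y axis, %) of domain lengths (x axis, kb). Left, summed length of both LBC type 1 domains beside absent and kept boundaries, whose curves lie close together (medians 1152 and 1232 kb). Right, at absent boundaries, the post-LBC domain that held the position (medians 1072 kb in type 1 and 896 kb in type 2) and each LBC type 1 domain beside it.

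After lampbrush, nearly every absent boundary lay inside a domain. This was largely fixed by the choice, which keeps members at least 96 kb from any internal post-LBC boundary. A post-LBC type 1 domain held 243 of the 244, with a median length of 1072 kb against 864 kb for that whole list, and a post-LBC type 2 domain held 243 of them, with a median of 896 kb against 688 kb. A long domain has more room for a position at least 96 kb from its ends, so these lengths are in part fixed by the choice. The 243 positions fell in 223 different post-LBC type 1 domains (19.7% of the list), of which 203 held 1 absent boundary and 20 held 2. In post-LBC type 2 they fell in 225 domains, of which 207 held 1 and 18 held 2.

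The positions of the outer ends of both flanking domains were not used in the choice, and they show how the later domain was drawn. An exact fusion was counted where the post-LBC domain began and ended within 80 kb of the outer ends of both flanking LBC type 1 domains. In post-LBC type 1 this was so for 69 of 206 absent boundaries (33.5%, 27.4 to 40.2). A further 37 lay in a longer domain that covered both flanks, and for 100 an end of the post-LBC domain lay inside a flank. Over all internal LBC type 1 boundaries between adjoining domains that had no post-LBC type 1 boundary within 80 kb, exact fusions made up 29.9%, so the share at absent boundaries was near the background. In post-LBC type 2 there were 27 exact fusions (13.1%, 9.17 to 18.4), beside 12.3% of all such boundaries without a post-LBC type 2 boundary, while 29 lay in a longer domain and 150 had a domain end inside a flank.

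Exact fusions in post-LBC type 1 were less frequent for the flanking domains of LBC type 2. With the choice started from that list, 27 of 227 boundaries showed an exact fusion in post-LBC type 1 (11.9%, 8.30 to 16.8), and 17 had one in post-LBC type 2 (7.49%, 4.73 to 11.7). The shares over all LBC type 2 boundaries without a post-LBC boundary were not taken. Whether the lower level is particular to these boundaries was therefore not tested. Both outer ends of the LBC type 1 flanks had a post-LBC type 1 boundary within 80 kb at 88 of the 206 absent boundaries, 1 of the ends had one at 91, and neither end had one at 27. For post-LBC type 2 these numbers were 62, 97 and 47. The same counts were not taken over all internal LBC type 1 boundaries, so they describe the absent boundaries without a background.

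In both post-LBC lists together, 20 absent boundaries on 12 chromosomes showed an exact fusion, and 92 had a domain end inside a flank in both. No share over all internal LBC type 1 boundaries was taken for these joint counts. On chromosome 3 at 50528000 the LBC type 1 domains of 800 kb and 256 kb lay under a domain from 49728001 to 50784000 in post-LBC type 1 and in post-LBC type 2 alike, with outer ends identical to those of the automatic lampbrush pair. On chromosome 11 at 6368000 the post-LBC domains ran from 5984001 to 6912000 in type 1 and to 6880000 in type 2, over lampbrush domains that began at 5984001 and ended at 6896000. In both places the hand-refined list of the LBC type 1 map also drew 1 domain with these outer ends to within 80 kb, of 1056 kb on chromosome 3 and 960 kb on chromosome 11. These 2 examples were chosen after their values were seen.

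The member farthest from any later boundary in each chromosome class is given as an example. Such a distance requires a long post-LBC domain over the member, so these examples do not show the range of forms. On macrochromosome 4 at 12880000 the nearest post-LBC boundary was 544 kb away, and a post-LBC type 1 domain of 1120 kb covered the lampbrush domains of 544 kb and 496 kb as an exact fusion. On intermediate chromosome 6 at 2848000 it was 720 kb away, inside larger domains that measured 1552 kb after lampbrush in type 1 and 1520 kb in type 2. On microchromosome 13 at 5088000 it was 656 kb away, and the post-LBC type 1 domain from 4160001 to 5744000 had the outer ends of both lampbrush domains. On Z at 25888000 it was 560 kb away, in a post-LBC type 1 domain of 1312 kb that began inside the left lampbrush domain. At each of these places the hand-refined list of the LBC type 1 map also drew 1 domain over both flanks. It measured 1056 kb on chromosome 4, 2530 kb on chromosome 6, 1584 kb on chromosome 13 and 1600 kb on Z. The median distance to a post-LBC boundary was 224 kb on macrochromosomes, 288 kb on intermediate chromosomes, 256 kb on microchromosomes and 272 kb on Z.

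The manual list answers whether the domains that the authors refined by hand on the LBC type 1 map kept these boundaries. Of the 244 absent boundaries, 39 had a manual boundary within 80 kb (16.0%, 11.9 to 21.1). Of all internal LBC type 1 boundaries on the chromosomes of the manual list, 47.8% had one. Of 350 kept boundaries, 270 had one (77.1%, 72.5 to 81.2), so absent boundaries had manual support less often by 61.2 percentage points (difference -61.2, Newcombe interval -66.9 to -54.2). The share at absent boundaries within 80 kb was close to the 15.4% of grid positions that lie that near a manual boundary. The manual boundaries were not spread evenly over this distance, however. In 32 kb windows, 11.9% of absent boundaries had a manual boundary at a distance of 0, against 1.23% at -64 kb and 1.23% at 64 kb. No grid share was taken for a distance of 16 kb. Within 16 kb, the shares were 13.5% for absent and 66.3% for kept boundaries. Chromosome 25, which had no absent boundary, is not in the manual list and was left out.

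The low manual support of absent boundaries was found in every chromosome class. It was 17 of 122 absent and 142 of 200 kept boundaries on macrochromosomes, 5 of 48 and 54 of 62 on intermediate chromosomes, 12 of 53 and 58 of 68 on microchromosomes, and 5 of 21 and 16 of 20 on Z. Where both lampbrush lists placed the boundary at the same position, 16.9% of 83 absent boundaries had manual support (10.3 to 26.3), and so had 15.5% of the other 161 (10.7 to 21.9). Between adjoining domains it was 13.6% of 206 absent boundaries, and at gaps 28.9% of 38.

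Across all LBC type 1 boundaries, manual support was high where post-LBC type 1 had a partner and low where it had none, with or without a partner in LBC type 2. Boundaries found in LBC type 1 only had a manual partner in 15.9% of 315 cases (12.3 to 20.3), and the absent boundaries, which differ from them by their LBC type 2 partner, exceeded them by 0.11 points (Newcombe interval -5.91 to 6.38). With a post-LBC type 1 partner and no post-LBC type 2 partner, manual support was 65.8% with an LBC type 2 partner and 65.7% without one. With partners in both post-LBC lists it was 77.1% and 75.8%. With a post-LBC type 2 partner alone it was 24.0% of 96 boundaries with an LBC type 2 partner (16.5 to 33.4) and 32.1% of 109 without one (24.1 to 41.4). The 4 differences between boundaries with and without an LBC type 2 partner ran from -8.15 to 1.30 points, and each Newcombe interval included 0. All 8 combinations come from the same LBC type 1 list, and the manual list was refined from an automatic annotation of that same map.

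**Figure D4:**
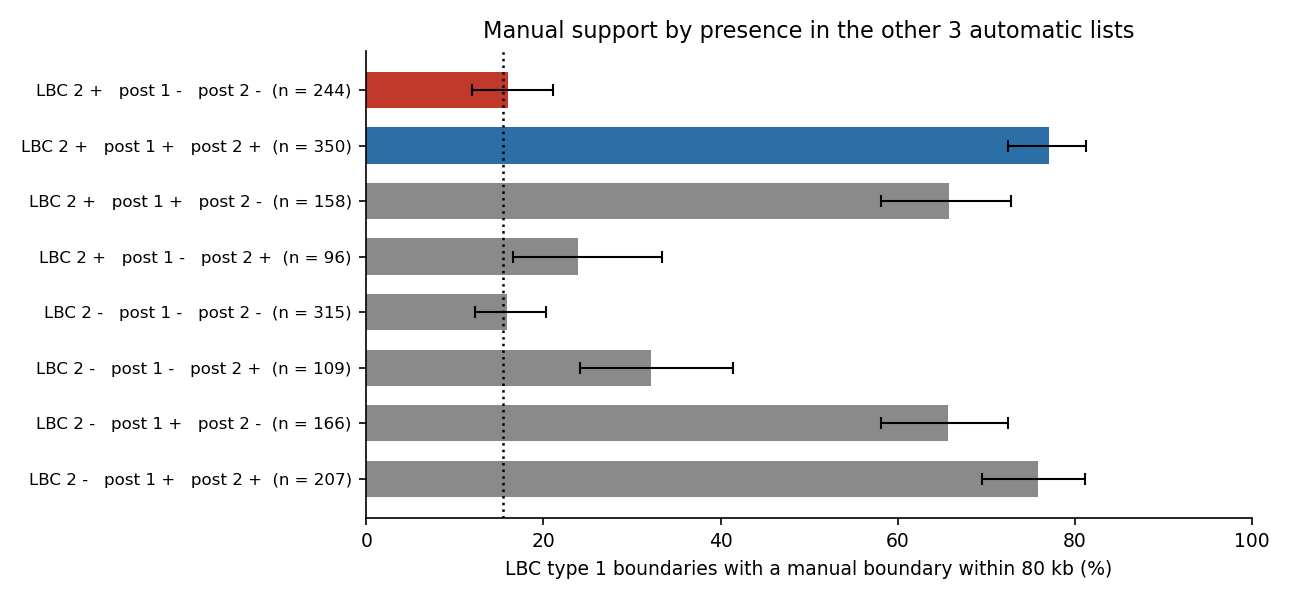
Share of LBC type 1 boundaries (x axis, %) with a manual boundary within 80 kb, for each combination of presence (+) and absence (-) in LBC type 2, post-LBC type 1 and post-LBC type 2. Bars are 95% Wilson intervals and the dotted line marks the 15.4% of grid positions near a manual boundary. The absent boundaries (red, 16.0%) lie at the level of those found in LBC type 1 only (15.9%), and the kept ones (blue) reach 77.1%.

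Where the manual list had no boundary, it mostly drew a single lampbrush domain over both flanks, as it did for LBC type 1 boundaries in general. Of the 206 absent boundaries between adjoining domains, 68 lay in a manual domain with the outer ends of both flanks to within 80 kb (33.0%, 27.0 to 39.7), 71 in a longer manual domain that covered both flanks, and 39 in a manual domain with an end inside a flank. The other 28 had a manual boundary. The manual list thus showed 1 domain over both flanks at 139 of the 178 without a manual boundary (78.1%). This was the background, since the share was 78.4% of 241 such boundaries found in LBC type 1 only and 78.8% of 745 such boundaries over all internal ones. A manual domain with the same outer ends covered 38.2% of the 178 absent boundaries (31.4 to 45.5), against 25.3% of the 241 found in LBC type 1 only (20.2 to 31.2), 35.2% of 54 kept ones (23.8 to 48.5) and 27.8% of all 745 (24.7 to 31.1).

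The same places were often joined in the manual lampbrush list and in post-LBC type 1. Of the 69 exact fusions in post-LBC type 1, 49 also lay in a manual LBC type 1 domain with the same outer ends (71.0%, 59.4 to 80.4), against 19 of the 137 absent boundaries without an exact fusion there (13.9%, 9.06 to 20.6). The difference was 57.1 points (Newcombe interval 43.7 to 67.7). Over all internal boundaries between adjoining domains with no post-LBC type 1 boundary within 80 kb, the same shares were 57.8% of 199 with an exact fusion (50.8 to 64.4) and 9.38% of 469 without one (7.06 to 12.4). Both measures require an end near the same outer positions, so they are not independent of each other. Of the 20 absent boundaries with an exact fusion in both post-LBC lists, 14 lay in such a manual domain, 4 in a longer manual domain, 1 in a manual domain with an end inside a flank, and 1 had a manual boundary.

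**Figure D5:**
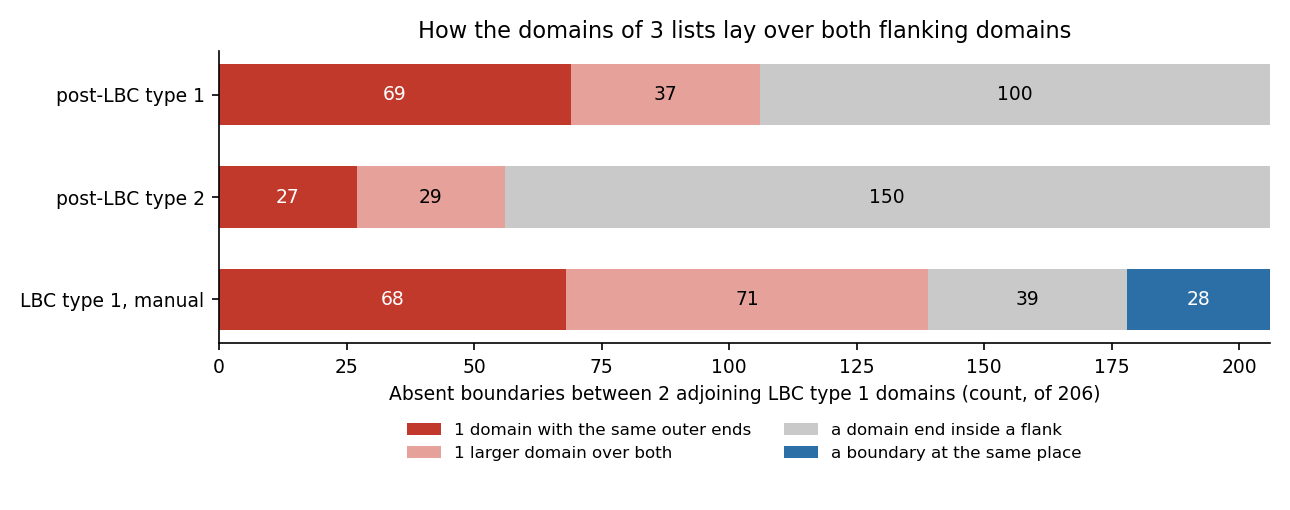
Counts (x axis) of the 206 absent boundaries between adjoining LBC type 1 domains by how the domains of post-LBC type 1, post-LBC type 2 and the manual LBC type 1 list lay over both flanking domains. The manual lampbrush list drew 1 domain with the same outer ends at 68 of them and post-LBC type 1 at 69, whereas the manual list had a boundary at 28.

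The study divides lampbrush domains into large unstructured domains (LUDs), which exceed the manual list's N50 in length, and smaller ones. The N50, the length above which domains hold at least 50% of the summed length, was 1344 kb here. Of the 205 absent boundaries without a manual boundary, 94 lay in a LUD (45.9%, 39.2 to 52.7), against 47 of 80 kept ones (58.8%, 47.8 to 68.9), 57.0% of the 265 found in LBC type 1 only and 58.5% of all 858 such internal boundaries (55.2 to 61.8). The manual domains over the absent boundaries had a median length of 1317 kb (quartiles 1010 and 1772 kb), against 1520 kb over all such boundaries. On Z, 14 of 16 such absent boundaries and 4 of 4 kept ones lay in LUDs, and on microchromosomes 7 of 41 absent and 3 of 10 kept ones did. On macrochromosomes it was 58 of 105 absent and 37 of 58 kept ones, and on intermediate chromosomes 15 of 43 and 3 of 8. The share thus varied by class, and the pooled shares were not adjusted for it. They also count boundaries in no manual domain, since 202 of the 205 absent and 72 of the 80 kept ones lay inside one.

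The 39 absent boundaries with manual support had a boundary within 80 kb in all 3 lists labelled lampbrush and in neither later list. The manual list was refined on the LBC type 1 map, so these lists are not independent of each other. The 39 were 16.0% of the absent boundaries, close to the 15.4% of grid positions within 80 kb of a manual boundary. They lay on 17 chromosomes, and 22 of the 39 had exactly the manual position. Of all 787 internal LBC type 1 boundaries with manual support, 523 had exactly the manual position, as did 184 of 270 kept ones. At 11 the boundary bordered a gap, and chromosome 20 held 4 of these in its run of gap sides. Of the 28 between adjoining domains, 4 showed an exact fusion in post-LBC type 1, 2 lay in a larger domain and 22 had a domain end inside a flank. For these gap and fusion counts, no share over all boundaries with manual support was taken. The only one with an exact fusion in both post-LBC lists lay on chromosome 10 at 14032000, the manual position, with the LBC type 2 boundary at 14000000. There LBC type 1 domains of 624 kb and 560 kb, from 13408001 to 14592000, were covered by a post-LBC type 1 domain of the same start and end and by a post-LBC type 2 domain of 1168 kb from 13408001 to 14576000. On Z at 31568000, also the manual position, the post-LBC type 1 domain of 1520 kb and the post-LBC type 2 domain of 688 kb both ended inside the lampbrush domains.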

How the data were processed

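Single-nucleus Hi-C reads were trimmed by the authors with cutadapt 4.1 and aligned with juicer 1.5.6 to ASM2420605v2, and pairs that reached mapping quality 30 were stored with cooler 0.10.2. Per the study's methods, domains were called with lavaburst 0.2.0, with a parameter tuned to a preferred average domain size, and the LBC type 1 domains were also refined by hand. The methods describe this tuning for single oocytes and at a resolution other than the 16 kb grid of the automatic lists. The settings used for the pooled maps are therefore not known here. The 5 deposited lists used here hold domain starts and ends in bp and carry no score, contact count or value per nucleus, so the depth behind a boundary was not analysed here. No per-sample column was left unused.

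Boundaries were compared with Python 3.11.15, numpy 2.4.6, pandas 2.3.3 and scipy 1.17.1, and drawn with matplotlib 3.10.9. Partners were counted within 80 kb, with the first and last boundary left out of every automatic list. A printed boundary is the last base of its left-hand domain or, on the right side of a gap, the base before its right-hand domain. Shares carry 95% Wilson intervals and differences Newcombe intervals. Each group is 1 pooled map, so no test was run. The matching code was checked on simulated lists without gaps, with positions shifted by less than 80 kb. That check does not cover gaps or shifts beyond 80 kb. Regions are named if they are farthest from a later boundary in their chromosome class, have the longest or shortest flanks, form the longest runs, are exact fusions in both post-LBC lists with a manual boundary within 16 kb, or lie just inside the threshold, and chromosomes if they have the highest or lowest share. The members and these rules were chosen with earlier results of these data known. The sequence of the assembly was not used here.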

Additional observations from a re-analysis of the deposited data

How the results depend on the processing

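Of 40 values recomputed under other settings, 28 stayed within the main value's interval, or within 1.5 times for the count of absent boundaries. With a tolerance of 32 kb there were 186 absent boundaries and with 160 kb 257, and the share of exact fusions in post-LBC type 1 was 21.2% and 49.8%, since the tolerance is part of its definition. The ratio of summed flanks was 0.861 at 160 kb. Absence from post-LBC type 2 alone gave 405 boundaries, a manual support 30.1 points below that of kept ones (-30.1), a flank ratio of 0.962 and 20.4% exact fusions in post-LBC type 1, and this set holds boundaries that post-LBC type 1 kept. Started from LBC type 2, the set had 253 boundaries, its flank ratio turned to 1.03 and exact fusions fell to 11.9%. The cause was not tested. Without gap borders, 28.2% of absent boundaries had an LBC offset of 0. Manual support counted within 16 kb differed by -52.8 points. Chromosomes 1 to 10 and Z held 78.3% of absent boundaries. Counting the sides of 1 gap once, chosen after seeing the data, gave 233 boundaries and a manual difference of -61.4 points.

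With single chromosomes left out, the count ran from 209 to 244, the manual difference from -62.9 to -60.2 points, the flank ratio from 0.890 to 0.935, exact fusions from 32.1% to 37.1% and the share on macrochromosomes and Z from 51.7% (without chromosome 2) to 62.4%. No paired analysis was possible because the lists describe pooled maps and carry no value per nucleus. For the same reason no nucleus could be left out. The post-LBC type 2 list rests on 1 nucleus, LBC type 2 may not be lampbrush chromosomes of the kind in type 1, and the number of nuclei, the number of boundaries, the type and the stage differ together between the lists, so their parts in an absence cannot be told apart.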
